A study of Mus musculus with 24 samples.

Results

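The 38 genes described here are interferon response genes of the mouse, chosen by their symbols from a list of genes that interferon is known to induce. The choice was made with earlier results of these data known, so counts of members below describe the list and do not test it. All 38 were among the 16118 genes of the deposited table, and all 38 were among the 16005 genes that passed the filter on low read numbers. They were measured by sequencing of poly(A) RNA from inguinal white adipose tissue, the fat pad under the skin of the groin, in 24 mice with 1 library per mouse. Males and females, 4 of each, were taken at postnatal day 21 (p21). A further 4 males and 4 females were taken at postnatal day 28 (p28) after standard weaning (SW), in which the pup was separated from its mother at day 21, and 4 males and 4 females at p28 after delayed weaning (DW), in which the pup had stayed with its mother. The p21 animals also carry the SW label, and they are the baseline for both kinds of weaning. Below, SW stands for the p28 animals alone. Strain, genotype and litter are not given in the sources used here. The comparisons ask how the genes differ with age, with the time of weaning and with sex.

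Interferons are secreted proteins that warn cells of viral infection. Type I interferons bind a receptor whose kinases activate transcription factors, and a complex that holds STAT2 and IRF9 then binds the interferon-stimulated response element (ISRE) near target genes. Type II interferon, interferon-gamma, acts at another short element, the gamma-activated site (GAS), and many targets answer to both. The targets include sensors of viral RNA, proteins that bind or degrade it, GTPases that attack the membranes around intracellular parasites, and parts of the machinery that presents peptides to T cells. In fat tissue, macrophages, other immune cells, vessel cells and adipocytes can all express such genes, so the level in a whole fat pad sums over all of them.

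The sequence upstream of the members was examined first, as a description. The members were chosen as genes that interferon induces, and the ISRE lies near such genes. A high share of matches is therefore tied to the choice and does not test the list. RefSeq promoter sequences of the GRCm38.p6 build were found for 30 of the 38 members. The ISRE core was searched as GAAANNGAAA on both strands, which reads TTTCNNTTTC on the other strand, in the 250 bases before each gene's start. It was found upstream of 15 of the 30 members (50.0%) and of 936 of 27025 genes in the table (3.46%). The GAS core, searched as TTCNNNGAA, which reads the same on both strands and can overlap an ISRE match, was found upstream of 6 of the 30 members (20.0%) and of 2197 genes (8.13%). A match is a description of the letters and not a measured binding site. The windows below are shown for members whose values the results turn on, read 5′ to 3′ on the strand of the gene, with every ISRE match in capitals.
Isg15 (chr4:156200855-156200916, minus strand): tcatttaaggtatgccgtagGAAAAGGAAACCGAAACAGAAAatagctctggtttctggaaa
Ifit1 (chr19:34640765-34640833, plus strand): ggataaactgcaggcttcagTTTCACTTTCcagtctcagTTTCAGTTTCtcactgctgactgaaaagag
Ifit3 (chr19:34583353-34583436, plus strand): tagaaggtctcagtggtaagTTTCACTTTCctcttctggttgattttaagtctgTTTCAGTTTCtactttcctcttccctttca
Oas1a (chr5:120907526-120907565, minus strand): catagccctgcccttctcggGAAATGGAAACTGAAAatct
Rsad2 (chr12:26456543-26456592, minus strand): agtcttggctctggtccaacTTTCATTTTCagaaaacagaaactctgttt
Bst2 (chr8:71537567-71537622, minus strand): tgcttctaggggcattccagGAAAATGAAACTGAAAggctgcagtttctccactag
Gbp3 (chr3:142559979-142560034, plus strand): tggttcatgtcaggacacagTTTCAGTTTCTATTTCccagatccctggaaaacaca
Irgm1 (chr11:48871421-48871470, minus strand): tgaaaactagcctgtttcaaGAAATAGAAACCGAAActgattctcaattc
Igtp (chr11:58199502-58199551, plus strand): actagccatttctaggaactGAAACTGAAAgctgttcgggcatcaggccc

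In Isg15 the window holds 3 overlapping matches that begin 78, 72 and 66 bases before the start of the gene. The Ifit3 window recurs letter for letter upstream of its neighbour Ifit3b (84 of 84 bases), while the whole 250 bases upstream of that pair were 76.95% identical. The coding sequences of such recent copies are also close, so reads may have been split or shared within the pairs Ifit3 and Ifit3b, Gbp3 and Gbp7, and Oas1a and Oas1g, and the separate values of those genes are uncertain to that extent. The strand setting of the read counting is not given in the sources used here.

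Values below are the authors' normalised values, which are read numbers divided by 1 factor per library, and group values are mean ± SD over n = 4 animals. Animals are listed in the order of their numbers. Recovered reads per library ranged from 57600711 in p21 male 53 to 302145813 in SW male 85. The fat cell gene Adipoq lay between 787 and 1527 in all 24 animals. Changes are differences of log2(value + 1) between group means, tested with limma over 16005 genes with Benjamini-Hochberg adjustment, and a gene is said to have changed at an adjusted p under 0.05. The p21 animals have numbers 30 to 56 and the p28 animals 73 to 124, so age and the run of animal numbers cannot be told apart. The SW and DW comparisons with p21 share the same p21 animals within a sex.

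Interferon response genes were higher at p28 than at p21 in both sexes and after both kinds of weaning. Of the 38 members, 22 rose from p21 to p28 in SW males, against 11.9% of all genes that changed there. In SW females 24 of 38 rose, against 11.6% of all genes. In DW males 22 of 38 rose, against 15.0% of all genes, and in DW females 24 of 38 rose, against 12.1% of all genes. No member fell in any of these comparisons. The shares of all genes count changes in either direction. Of the 16005 genes, 1105 rose in SW males, 1183 in SW females, 1418 in DW males and 952 in DW females. The median change of the 38 members was 0.62 in SW males, 0.88 in SW females, 0.49 in DW males and 0.66 in DW females, while the median over all genes tested lay at 0.01, 0.01, 0.02 and 0.00. The change was positive in 36, 38, 33 and 37 members in the same order.

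**Figure D1:**
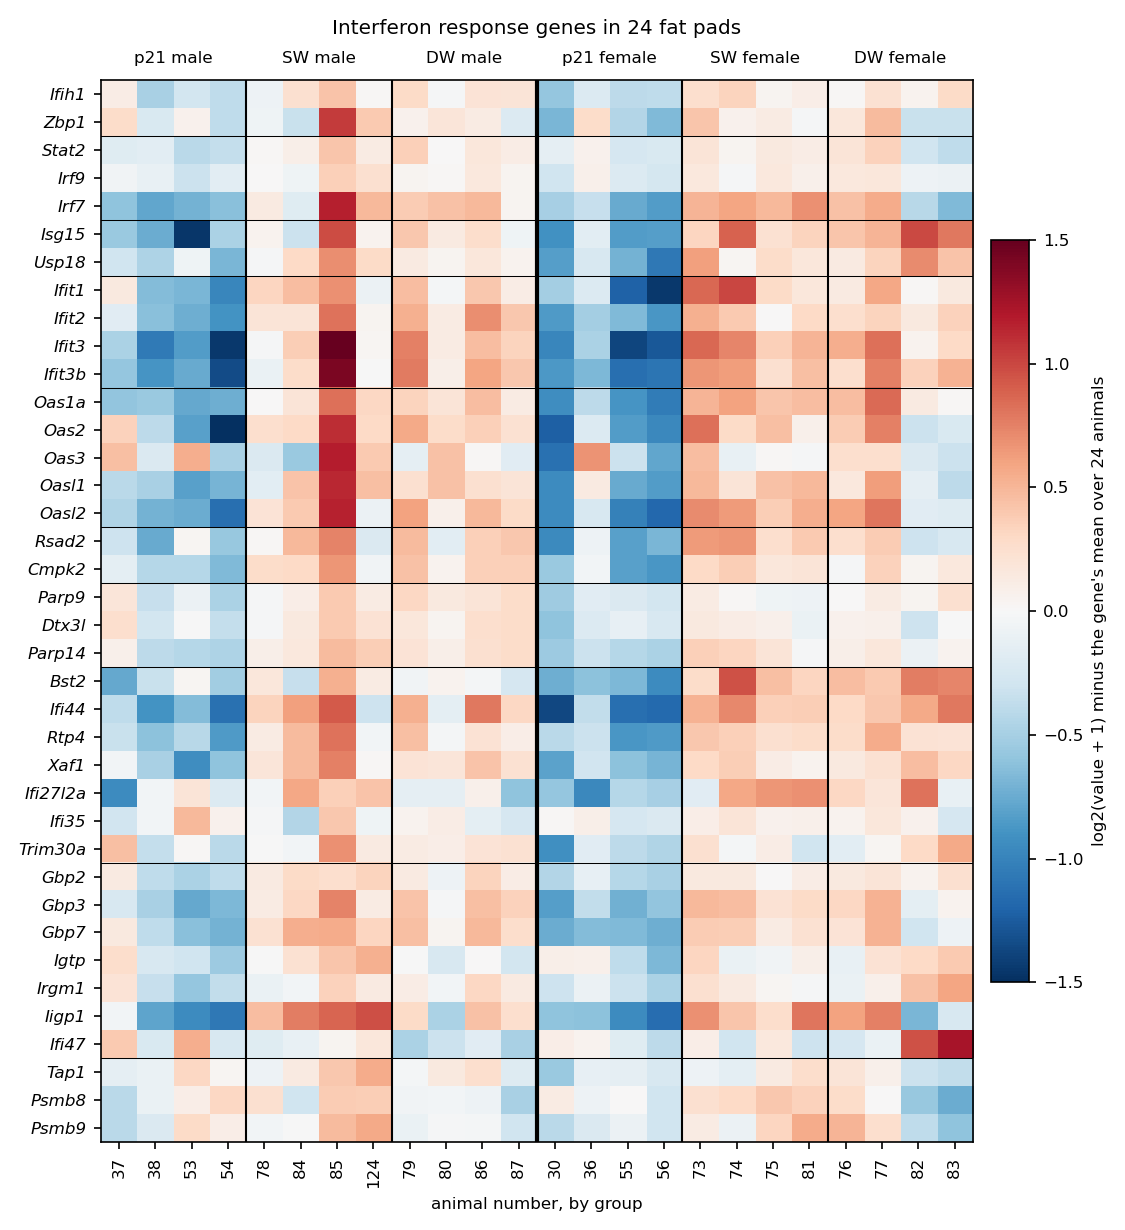
Each row is 1 interferon response gene, grouped by role, and each column is 1 of the 24 animals, grouped by sex, age and weaning. Colour gives log2(value + 1) minus the gene's mean over the 24 animals, with the scale ended at -1.5 and 1.5; p21 animals of both sexes are mostly blue, and SW male 85 holds the highest value of all 24 animals in 23 of the 38 rows.

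17 members rose in all 4 comparisons: Ifih1, Isg15, Ifit2, Ifit3, Ifit3b, Oas1a, Oas2, Oasl2, Cmpk2, Parp14, Ifi44, Rtp4, Xaf1, Gbp2, Gbp3, Gbp7 and Iigp1. 12 of these 17 also passed the test in every fit that left out 1 animal, the exceptions being Ifih1, Isg15, Oas2, Gbp2 and Iigp1. 11 members rose in 1 to 3 comparisons, namely Stat2, Irf7, Usp18, Ifit1, Oasl1, Rsad2, Parp9, Bst2, Ifi27l2a, Trim30a and Irgm1. 10 members changed in none of them: Zbp1, Irf9, Oas3, Dtx3l, Ifi35, Igtp, Ifi47, Tap1, Psmb8 and Psmb9. In fits that each left out 1 animal, 16 to 26 members rose after SW and 15 to 24 after DW in males. In females 24 to 25 members rose after SW and 19 to 26 after DW. The share of all genes that changed in these fits was 7.19% to 10.8%, 7.72% to 16%, 8.71% to 10% and 6.69% to 19.5%, in the same order. The call held in every such fit for 16 of 22 members in SW males, 24 of 24 in SW females, 13 of 22 in DW males and 18 of 24 in DW females. When the fit held the compared groups alone, the number that rose was 11 in SW males, 27 in SW females, 16 in DW males and 15 in DW females. The share of all genes that changed there was 5.14%, 15%, 12.6% and 3.09%, in the same order.

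**Figure D2:**
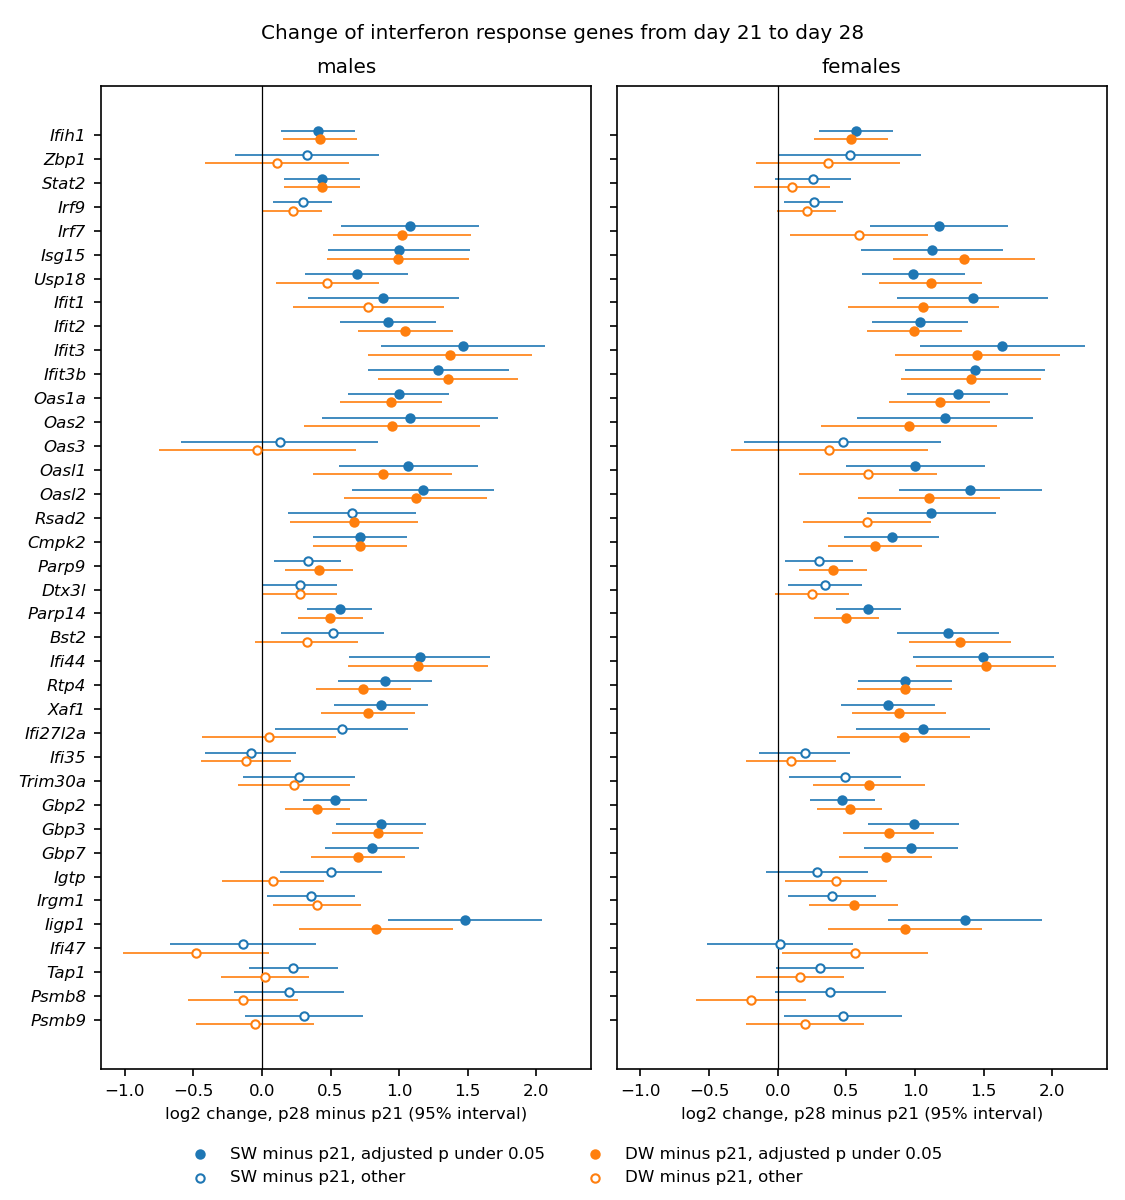
Points are log2 changes from p21 to p28 for each member in males (left) and females (right), with 95% intervals as lines, after SW (blue) and DW (orange); filled points passed an adjusted p of 0.05. Ifit3, Ifit3b, Oasl2 and Ifi44 lie above 1 in all 4 comparisons, and the genes of antigen processing at the foot lie between -0.19 and 0.48.

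The IFIT genes, whose products bind foreign RNA and block its translation, were among the members with the largest changes. All 4 rose in SW males, SW females and DW females, and 3 of 4 in DW males, with group medians of 1.10, 1.43, 1.23 and 1.20. Ifit3 (chromosome 19), an IFIT protein that also supports antiviral signalling, was 22.6, 14.7, 17.3 and 11.0 in the p21 males, 31.5, 41.3, 103 and 32.4 in the SW males and 54.1, 34.6, 44.2 and 40.1 in the DW males. In females Ifit3 was 15.7, 22.6, 11.6 and 12.5 at p21, 58.6, 53.3, 41.0 and 45.5 after SW and 46.9, 57.0, 32.9 and 39.4 after DW. Every p28 animal lay above every p21 animal of either sex, and SW male 85 stood far above the others of its group. Ifit3 rose by 1.47 in SW males (SE 0.29, limma adjusted p 0.00244), 1.64 in SW females (adjusted p 0.000523), 1.37 in DW males (0.00373) and 1.45 in DW females (0.00239). Its close copy Ifit3b (chromosome 19) was 5.49, 4.24, 4.76 and 2.82 in p21 males, 8.04, 10.8, 24.7 and 8.67 in SW males and 15.6, 9.29, 13.6 and 11.8 in DW males. In females Ifit3b was 4.34, 5.10, 3.42 and 3.54 at p21, 14.4, 14.0, 10.5 and 12.3 after SW and 10.5, 15.4, 11.3 and 12.9 after DW. It too had no overlap between ages in either sex, and rose by 1.29, 1.44, 1.35 and 1.41 in SW males, SW females, DW males and DW females. Ifit2, which binds viral RNA, rose by 0.92 to 1.04 over the 4 comparisons. Ifit1, which holds RNA that lacks the cap of the host, rose by 0.88 in SW males, 1.42 in SW females and 1.06 in DW females, and changed by 0.78 in DW males (limma adjusted p 0.0515). In SW males Ifit1 no longer passed without any 1 of 6 animals, with adjusted p up to 0.105 (without SW male 85).

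The OAS genes encode enzymes that detect double-stranded RNA and make the messenger that activates RNase L, and the Oasl genes are related to them. 4 of the 5 rose in SW males, SW females and DW males and 3 of 5 in DW females. Oas1a rose by 1.00 in SW males, 1.31 in SW females (limma adjusted p 3.3e-05), 0.94 in DW males and 1.18 in DW females. It was low, at 2.10 ± 0.230 in p21 males and 5.31 ± 1.62 in SW males, a range where the log2(value + 1) scale understates the change. Oasl2 rose from 20.9 ± 6.92 in p21 females to 55.3 ± 5.61 in SW females and 46.7 ± 16.8 in DW females. Oas2 rose in all 4 comparisons, but its calls were lost without any 1 of 3 animals in SW males, 7 in DW males and 6 in DW females. Oas3 did not pass in any, with changes of 0.13, 0.47, -0.03 and 0.38 and the lowest level per kilobase of exon of all members (0.478 in p21 females to 0.780 in SW males).

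Ifi44, an interferon-induced protein of unclear biochemical role, was 6.20, 4.03, 4.96 and 3.29 in the p21 males, 10.7, 13.3, 16.7 and 6.52 in the SW males and 12.6, 7.44, 15.2 and 10.6 in the DW males. In females Ifi44 was 2.64, 6.22, 3.26 and 3.18 at p21, 12.4, 14.4, 11.0 and 11.1 after SW and 10.5, 11.3, 12.8 and 15.2 after DW. The ages did not overlap in either sex, though the lowest SW male was close to the highest p21 male. Ifi44 (chromosome 3) rose by 1.15 in SW males, 1.50 in SW females (SE 0.25, limma adjusted p 0.000254), 1.14 in DW males and 1.52 in DW females (adjusted p 0.000467). Among the other effectors, Rtp4, a chaperone that also restrains viruses, rose by 0.74 to 0.93, and Xaf1, a protein that promotes cell death, by 0.77 to 0.89. Bst2, or tetherin, which holds budding virus at the cell surface, and Ifi27l2a, a small membrane protein, rose in SW and DW females only, and the test of a sex difference in the SW change did not pass for either (limma adjusted p 0.285 and 0.840), while that in the DW change was not tested. Bst2 was 12.5, 13.6, 13.1 and 10.7 in p21 females, 26.1, 42.5, 29.8 and 27.0 in SW females and 29.9, 28.5, 37.2 and 36.4 in DW females, without overlap, and rose by 1.24 and 1.33. In males Bst2 was 12.2, 16.8, 22.0 and 14.7 at p21, 24.2, 16.6, 31.5 and 23.4 after SW and 20.6, 22.3, 21.0 and 17.8 after DW, with overlapping groups and changes of 0.52 and 0.33. Ifi27l2a had the highest level per kilobase of exon of the 38 members in every group, 160 in p21 females to 342 in SW females. Ifi35, a partner of the cytokine-like protein NMI, changed by -0.12 to 0.20 and never passed. Trim30a, a ubiquitin ligase of a family of close copies, rose in DW females (0.67, limma adjusted p 0.0296), and changed by 0.42 there without DW females 82 and 83, where it did not pass.

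**Figure D3:**
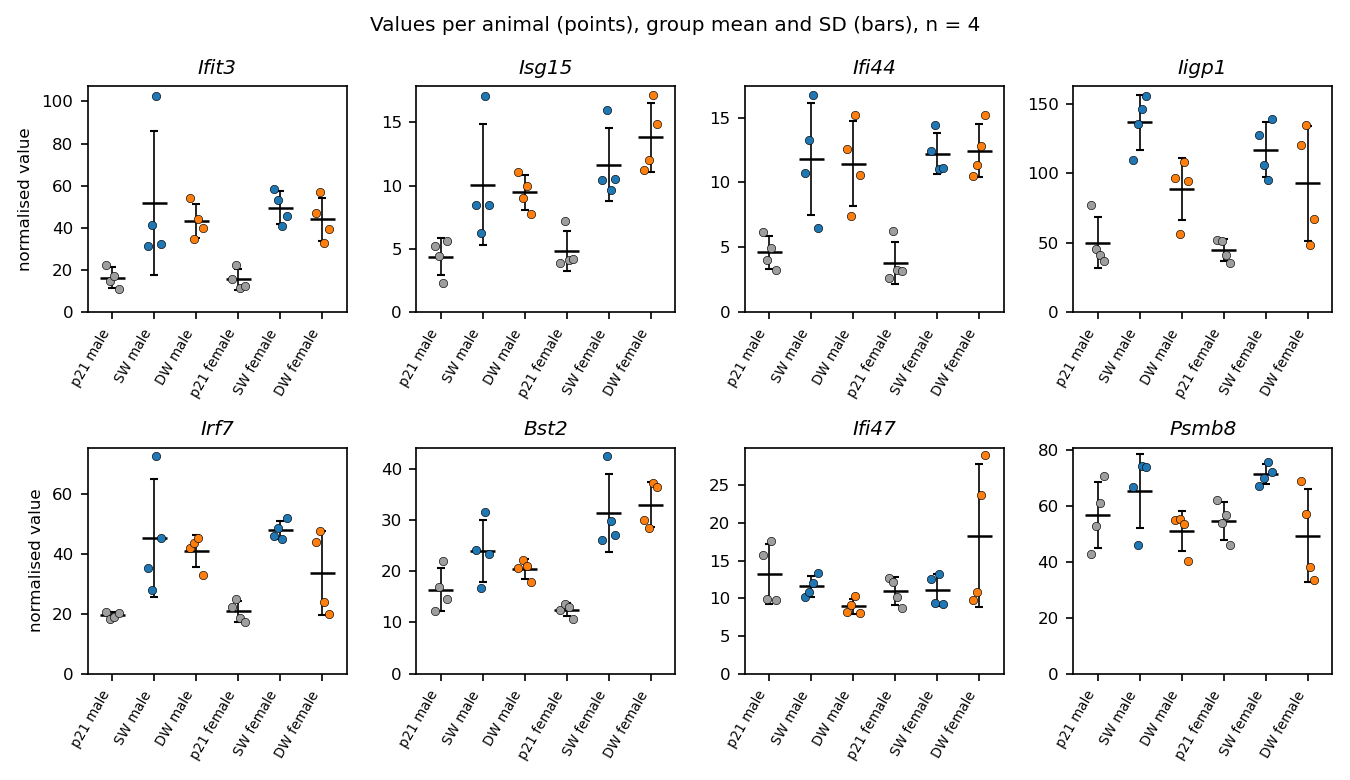
Points are normalised values of single animals for 8 members, by group, with the group mean and SD (n = 4) as bars. Ifit3, Isg15 and Ifi44 are lowest in the p21 groups of both sexes, Irf7, Iigp1 and Psmb8 are split within the DW females, and Ifi47 is high in DW females 82 and 83.

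Isg15, a ubiquitin-like protein that is joined to other proteins, and Usp18, the protease that removes it and that also damps the interferon receptor, were both higher at p28. Isg15 was 4.40 ± 1.46 in p21 males, 10.1 ± 4.79 in SW males and 9.47 ± 1.40 in DW males, and 4.85 ± 1.58, 11.7 ± 2.89 and 13.8 ± 2.71 in the matching female groups. It rose by 1.00, 1.13, 0.99 and 1.36 in SW males, SW females, DW males and DW females. In SW males the change was 0.73 and did not pass without SW male 85 (limma adjusted p 0.0578), and in DW males it was 0.77 and did not pass without p21 male 53 (limma adjusted p 0.0522). Usp18 rose by 0.69 in SW males, 0.99 in SW females and 1.11 in DW females, and changed by 0.48 in DW males (limma adjusted p 0.0794). Rsad2, or viperin, which makes a chain-terminating nucleotide, and its neighbour Cmpk2, a nucleotide kinase, form a pair of genes on chromosome 12. Cmpk2 rose by 0.71 to 0.83 in all 4 comparisons. Rsad2 rose in SW females (1.12) and DW males (0.67), and changed by 0.66 in SW males and 0.65 in DW females (limma adjusted p 0.0610 and 0.0631). The call in DW males (limma adjusted p 0.0487) was lost in 6 of 8 fits without 1 animal.

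Of the 2 sensors 1 rose in each comparison, and of the 3 signalling and transcription factor genes 2 rose in SW males, 1 in SW females, 2 in DW males and 0 in DW females. Irf7, the transcription factor that drives type I interferon production, rose from 19.5 ± 1.15 in p21 males to 45.2 ± 19.6 in SW males (1.08) and 40.9 ± 5.45 in DW males (1.02), and from 20.8 ± 3.48 in p21 females to 47.9 ± 3.11 in SW females (1.18). In DW females it was 43.7, 47.5, 23.7 and 19.8, a change of 0.59 that did not pass (limma adjusted p 0.115). The first 2 of these DW females lay near the SW females and the other two within the range of the p21 females. Stat2, a part of the ISRE-binding complex, rose by 0.43 in SW males and 0.44 in DW males, and changed by 0.26 and 0.10 in the females. Either male call was lost in 5 of 8 fits without 1 animal. Irf9, the complex's DNA-binding part, changed by 0.21 to 0.30 and did not pass in any. Ifih1, the MDA5 sensor of long double-stranded RNA, rose by 0.41 to 0.57, with the call lost in 5 of 8 such fits in SW males and 6 of 8 in DW males. Zbp1, a sensor of Z-form nucleic acid, changed by 0.11 to 0.52 and did not pass. Of the PARP9-DTX3L group, Parp14, an enzyme that adds ADP-ribose, rose by 0.50 to 0.66 in all 4 comparisons. Parp9 rose in the DW animals (0.41 in males, 0.40 in females), calls lost in 4 of 8 and 3 of 8 fits without 1 animal, and its ubiquitin ligase partner Dtx3l did not pass in any (0.25 to 0.35).

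The GTPases fell into members that rose and members that did not. Gbp2, Gbp3 and Gbp7, guanylate-binding proteins that coat vacuoles of intracellular microbes, rose in all 4 comparisons, Gbp3 by 0.81 to 0.99 and Gbp2 by 0.40 to 0.53. Iigp1 (chromosome 18), an immunity-related GTPase, was 77.0, 45.4, 40.8 and 37.1 in p21 males, 109, 135, 146 and 155 in SW males and 96.9, 56.5, 108 and 94.2 in DW males. In females Iigp1 was 51.8, 51.3, 40.8 and 35.5 at p21, 128, 106, 95.3 and 139 after SW and 120.4, 135, 48.7 and 66.8 after DW. SW animals of both sexes stood clear of p21 animals, while 1 DW male and 1 DW female fell within the p21 range of their own sex. Iigp1 rose by 1.48 in SW males (SE 0.27, limma adjusted p 0.00140), 1.36 in SW females, 0.83 in DW males (limma adjusted p 0.0416) and 0.93 in DW females (limma adjusted p 0.0272). The DW calls were lost in 6 of 8 fits without 1 animal in males and 4 of 8 in females. Without DW females 82 and 83 the female change was 1.50. Irgm1, a regulator of the other immunity-related GTPases, rose in DW females (0.55, limma adjusted p 0.0227), and changed by 0.29 there without DW females 82 and 83, where it did not pass. Igtp and Ifi47, 2 more GTPases of that family, did not pass in any, with changes of 0.08 to 0.50 and -0.48 to 0.56. The genes of antigen processing, Tap1, a peptide transporter, and Psmb8 and Psmb9, subunits of the immunoproteasome, did not pass in any comparison of ages, with changes between -0.19 and 0.48.

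Members with an ISRE match upstream were compared with members without one as a description. Of the 15 with a match, 9 rose in SW males, 10 in SW females, 9 in DW males and 11 in DW females. Of the 15 without, 8, 8, 8 and 6 rose in the same order. Igtp, whose window is printed above, holds a match and did not pass, while Ifih1, Oasl2 and Ifi44 have none in these 250 bases and rose in all 4 comparisons. The median change was 0.66 with and 0.41 without a match in SW males, 0.99 and 0.57 in SW females, 0.67 and 0.43 in DW males and 0.79 and 0.56 in DW females.

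No member passed the test between delayed and standard weaning. In males 0 of 38 members changed between DW and SW, against 0.256% of all genes. By limma 3 members lay at an unadjusted p under 0.05, against 1110 of 16005 genes. With edgeR and with DESeq2 there were 3 such members each, and neither called any. In females 0 of 38 changed, against 1.27% of all genes. There 4 members lay at an unadjusted p under 0.05 by limma, against 3019 of 16005 genes. With edgeR there were 2 such members and with DESeq2 3, again with none called. The median member change was -0.08 in males and -0.11 in females, and it was 0.07 in males without SW male 85 and 0.00 in females without DW females 82 and 83. The intervals were wide: that of Ifit3 ran from -0.69 to 0.50 in males and from -0.78 to 0.42 in females.

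In males the smallest p belonged to Iigp1, whose 4 DW values given above all lay under the 4 SW values. The group means were 137 ± 19.9 in SW males and 88.8 ± 22.3 in DW males, and the log2 difference was -0.64 (95% interval -1.20 to -0.08, limma adjusted p 0.626). Igtp was 22.3, 18.8, 22.5 and 18.4 in DW males and 22.4, 26.5, 30.3 and 32.7 in SW males. These groups overlapped slightly, with a change of -0.42 (limma adjusted p 0.638). In females the smallest p belonged to Psmb8, which was 69.2, 57.2, 38.1 and 33.4 in DW and 67.4, 70.2, 75.8 and 72.3 in SW animals. 1 DW female lay within the SW range and 3 below it. The change was -0.58 (95% interval -0.98 to -0.18, limma adjusted p 0.148). Irf7 changed by -0.59 (limma adjusted p 0.219) and split within the DW group as described for age. Ifi47, which was picked after its values were seen, was 9.71, 10.9, 23.7 and 28.9 in DW and 12.6, 9.31, 13.2 and 9.29 in SW females, a change of 0.55 (limma adjusted p 0.256). Its 2 high values were those of animals 82 and 83. Without DW female 76, Ifi47 (0.78, limma adjusted p 0.043) and Psmb8 (-0.76, limma adjusted p 0.0181) passed, which made 2 members in place of 0. In that fit 12.5% of all genes changed, against 1.27% with all animals, so the added calls were not particular to the members.

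**Figure D4:**
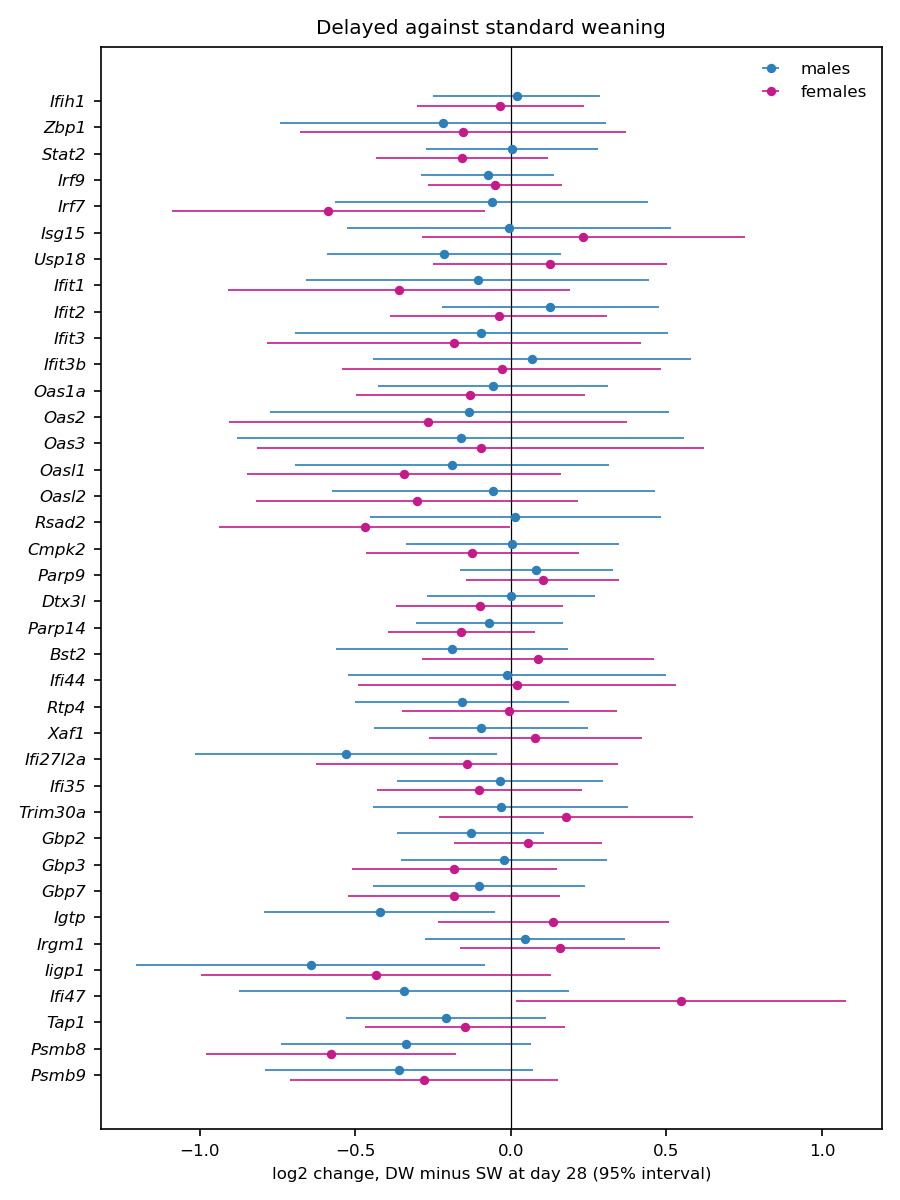
Points are log2 changes between DW and SW animals at p28 for each member in males (blue) and females (magenta), with 95% intervals as lines. No member passed an adjusted p of 0.05, and most intervals cover 0.

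By limma no member passed the test between males and females. At p21 0 of 38 members differed, against 0.356% of all genes. At an unadjusted p under 0.05 were 3 members by edgeR and 1 by limma, against 1376 of 16005 genes by limma. After SW 0 of 38 differed, against 3.54% of all genes. At that unadjusted p were 0 members by edgeR and 1 by limma, against 1466 of 16005 genes by limma. After DW 0 of 38 differed by limma, against 2.46% of all genes. In that comparison 3 members lay at an unadjusted p under 0.05, against 3158 of 16005 genes. There edgeR and DESeq2 each called 2 members, Bst2 and Ifi47, against 2.39% and 5.3% of all genes. By limma 2 passed without DW female 76, against 11.4% of all genes, and 2 without DW female 77, against 9.42%. Bst2 was lower in DW males than in DW females without overlap in the values given above, a change of -0.66 (95% interval -1.03 to -0.29, limma adjusted p 0.0522). Over 18 other settings this change lay between -0.73 and -0.50 and passed in 8. The Bst2 difference was -0.38 after SW (limma adjusted p 0.514) and 0.35 at p21 (limma adjusted p 0.612). Ifi47 was 8.18, 9.14, 10.3 and 8.05 in DW males, with 1 value above the lowest DW female and the others below all of them, a difference of -0.83 (limma adjusted p 0.0908) that lay between -1.08 and -0.19 over 18 other settings. At p21 the smallest p belonged to Trim30a, at 61.99, 34.8, 45.6 and 33.8 in males and 23.3, 39.9, 33.9 and 32.7 in females. These groups overlapped, and the difference was 0.41 (limma adjusted p 0.579). After SW Tap1 followed Bst2, at 45.2, 52.2, 63.4 and 70.2 in males and 45.2, 42.9, 52.5 and 57.2 in females, with overlap and a difference of 0.21 (limma adjusted p 0.876).

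Neither interaction passed for any member. The effect of weaning differed between the sexes in 0 of 38 members, against 0.0187% of all genes. By limma 815 of 16005 genes lay at an unadjusted p under 0.05, among them 2 members, and edgeR also had 2 members. These were Ifi47, whose weaning change in males minus that in females was -0.89, and Igtp, at -0.56 (limma adjusted p 0.802 for both). The change from p21 to SW differed between the sexes in 0 of 38, against 1.03% of all genes. By limma 1304 of 16005 genes lay at an unadjusted p under 0.05, among them 1 member, and edgeR also had 1 member. That member was Bst2, at -0.73 (limma adjusted p 0.285), and Rsad2 followed at -0.46 (limma adjusted p 0.838).

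Single animals carried much of the spread within groups. The level of the list, taken for each animal as the mean of log2(value + 1) across its 38 genes, was 4.20 to 4.64 in p21 males and 4.08 to 4.57 in p21 females. At p28 it was 4.84 to 5.48 in SW males, 4.83 to 5.05 in DW males, 5.00 to 5.15 in SW females and 4.84 to 5.15 in DW females, so that no p21 animal reached any p28 animal. SW male 85, the most deeply sequenced library, was the highest SW male in 31 of 38 members and the highest of all 24 animals in 23. Without this animal 16 of 38 members rose in SW males, and without it and p21 male 53, the library with the fewest reads and detected genes, 14 did. The share of all genes that changed was 7.19% and 5.89% in these fits, against 11.9% with all animals. p21 female 36 was the highest p21 female in 31 of 38 members and p21 male 37 the highest p21 male in 25.

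DW females 82 and 83 had a split pattern in which some members were low and others high. Irf7, Iigp1 and Psmb8 were lower in these 2 animals than in DW females 76 and 77, as the values above show. Stat2 was 79.2, 87.9, 56.0 and 52.7 in DW females 76, 77, 82 and 83, and Psmb9 was 36.3, 30.3, 19.2 and 16.4. In contrast Ifi47, Isg15 and Bst2 were higher in 82 and 83 than in the other two, and Trim30a was 40.2, 45.8, 55.3 and 67.1. The list level of these animals, 4.84 and 4.86, was under that of the other 2, at 4.99 and 5.15. The 2 pairs also differed outside the members, so the split was not particular to them. Mammary epithelial levels were 2.87 and 2.91 in 82 and 83, against 3.91 and 3.91 in 76 and 77. Endothelial levels were 7.29 and 7.15 against 7.53 and 7.61, and Irf3 was 25.0 and 23.1 against 48.4 and 40.3. Lymphocyte levels overlapped, at 5.69 and 5.90 against 5.89 and 5.56.

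Of the other interferon genes listed for the pathway, 75 of 88 were tested. 15 rose and 2 fell in SW males, 24 rose and 1 fell in SW females, 14 rose and 5 fell in DW males, and 17 rose and 3 fell in DW females. These were 22.7%, 33.3%, 25.3% and 26.7% of the 75, against 11.9%, 11.6%, 15.0% and 12.1% of all genes. By limma 0 changed with weaning in either sex, against 0.256% of all genes in males and 1.27% in females. At an unadjusted p under 0.05 were 4 in males, against 1110 of 16005 genes, and 7 in females, against 3019. Of the 8 interferon genes listed, 1 was analysed here, Ifng, which encodes interferon-gamma. Its group means were 0.0420 in DW males to 0.106 in SW males, and it did not pass in any comparison. These values are far below the 1 added before log2, so DW minus SW males was only -0.085. The test on this scale cannot decide whether Ifng changed. Of the receptor and kinase genes 1 changed: Ifnlr1, the receptor chain for type III interferons, was 1.66 ± 0.649 in p21 females, 4.54 ± 0.817 in SW females and 1.13 ± 0.139 in SW males. It rose by 1.08 in SW females (limma adjusted p 0.00141) and was lower in males than in females by limma after SW (log2 difference -1.37, adjusted p 9.41e-05) and DW (-0.99, adjusted p 0.00855), and the SW change differed between the sexes (-1.22, limma adjusted p 0.0477). Mammary epithelial markers moved with it: 5 of 5 were lower in SW males and in DW males than in females, and 4 of 5 rose in SW females, with a list level of 1.48 to 3.18 in p21 females, 4.25 to 4.76 in SW females, 2.87 to 3.91 in DW females and 0.0863 to 1.96 in males. Their part in the Ifnlr1 values was not tested.

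Irf1, a transcription factor gene outside the 38, had log2 differences of -0.22 to -0.15 between ages in females, which did not pass. Among the further targets, Oas1g, Phf11d and the ubiquitin ligase Trim25, together with the RNA sensor Tlr7 and the GTPase Irgm2, rose in all 4 comparisons of ages, Phf11d by 0.94 to 1.10 and Tlr7 by 0.68 to 0.92. The chemokine genes Cxcl9 and Cxcl10, which draw T cells and answer to interferon-gamma, rose in SW males by 1.17 and 0.71 and in SW females by 1.21 and 0.99. B2m, the light chain of MHC class I, rose in SW males (0.72), SW females (0.86) and DW females (0.65). Of the 18 interferon-gamma targets listed, 6 rose in SW males, 8 in SW females, 2 in DW males and 5 in DW females. The share of all genes that changed was 11.9%, 11.6%, 15.0% and 12.1%, in the same order. 2 of the 18 targets fell, both in DW males. These were Gbp8, a guanylate-binding protein gene that fell by 0.63, and Psme2, a subunit gene of the proteasome activator that fell by 0.54. Epsti1 fell by 0.77 in SW males, 0.93 in DW males and 0.91 in DW females, and Ube2l6, the enzyme that carries Isg15 to its targets, fell by 0.91 in DW males and 1.09 in DW females. Mavs, the adaptor below the RNA sensors, fell by 0.50 in SW females and 0.68 in DW females, and the inhibitor Ptpn2 fell by 0.42 in SW males and 0.47 in DW males.

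Markers of macrophages moved with the members in every comparison of ages. Of 8 macrophage genes, 6 rose in SW males, 6 in SW females, 8 in DW males and 6 in DW females, with median changes of 0.96, 1.16, 1.10 and 1.06. The share of all genes that changed was 11.9%, 11.6%, 15.0% and 12.1%, in the same order. The summed level of the macrophage list, as mean log2(value + 1), was 4.58 to 5.26 in p21 males and 4.64 to 4.87 in p21 females, and 5.59 to 6.11, 5.91 to 6.11, 5.85 to 6.04 and 5.54 to 6.30 in SW males, DW males, SW females and DW females. None of these markers was at 0 in any animal. Macrophage level and age therefore did not overlap, and their parts in the rise of the members cannot be told apart. In bulk tissue, fewer cells of a type and less RNA per cell cannot be told apart either. The macrophage level was also used as a covariate, an alternative chosen after the data were seen. With it 3 members rose in SW males, 5 in SW females, 1 in DW males and 10 in DW females. Of all genes, 3.86%, 6.19%, 1.86% and 18.3% changed in these fits, in the same order. The median member change was 0.56, 0.61, 0.46 and 0.51. Ifi44 passed in all 4 of these fits, at 1.62, 2.08, 1.69 and 2.08, and Usp18 and Bst2 in 3 of them. For Bst2 these included SW males (1.07, limma adjusted p 0.0229), where it had not passed without the covariate, and Ifi47 likewise passed in DW females under it (1.51, limma adjusted p 0.014). Iigp1 turned to -0.34 in DW males and -0.25 in DW females, Oas2 to -0.13 in both, and Stat2 to -0.027 in DW males.

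**Figure D5:**
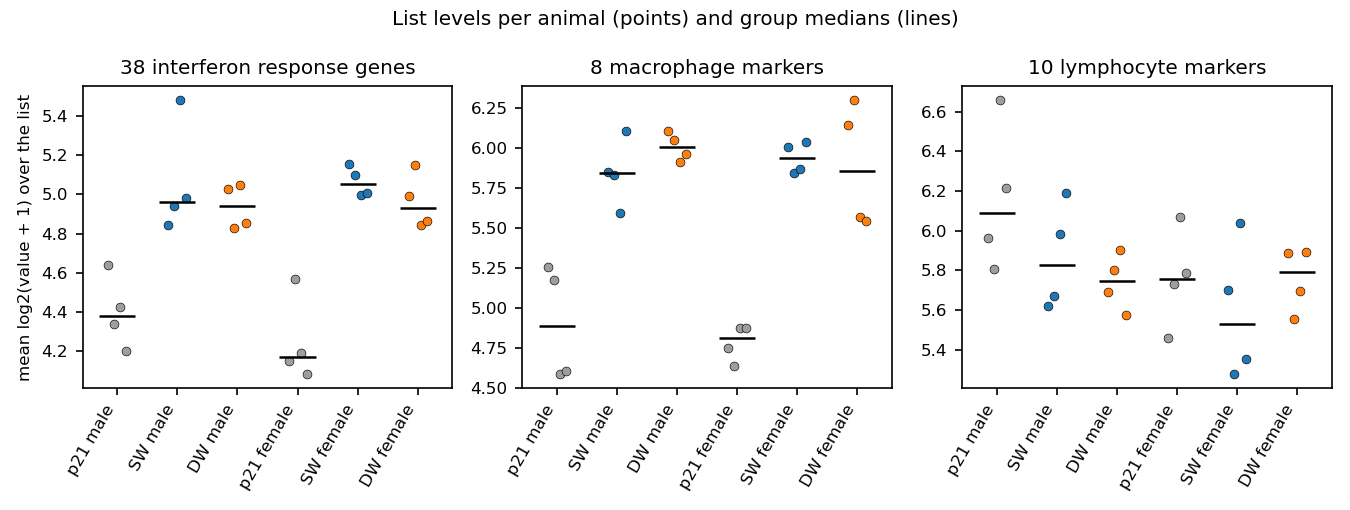
Points are single animals and lines group medians of the mean log2(value + 1) over the 38 members (left), 8 macrophage markers (middle) and 10 lymphocyte markers (right), by group. The first pair of panels shows p21 animals below all p28 animals, while the lymphocyte level overlaps between ages.

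The order of animals within a group was not the same for the members and the macrophage list. SW male 85 had the highest member level of the SW males, 5.48, and the lowest macrophage level, 5.59. p21 female 36 likewise had the highest member level of the p21 females, 4.57, and the lowest macrophage level, 4.64. In p21 male 37 both levels were the highest of its group, at 4.64 and 5.26, and in DW females 82 and 83 both were the lowest, at 5.57 and 5.54 for macrophages. Of 10 lymphocyte markers, 3 fell in SW males, 1 in SW females, 3 in DW males and 1 in DW females and none rose. The share of all genes that changed was 11.9%, 11.6%, 15.0% and 12.1%, in the same order. The level of the lymphocyte list overlapped between all groups. Of 5 NK cell markers, 2 rose in SW males, 3 in SW females, 0 in DW males and 2 in DW females, with a list level of 1.26 to 1.78 at p21 and 1.31 to 2.16 at p28. Of 4 markers of plasmacytoid dendritic cells, which make type I interferon, none changed between ages, and Siglech, a defining one, had group means of 9.74 ± 1.25 in DW females to 12.4 ± 1.20 in DW males. Of 5 endothelial markers 2 rose, in DW males. Of 6 adipocyte markers, 2 rose and 1 fell in SW males and 2 rose in DW males. All 4 skeletal muscle markers rose in SW and DW males and none passed in females, and the muscle level varied from 0.558 to 9.89 among animals. With the lymphocyte level as a covariate, 18 members rose in SW males, 24 in SW females, 13 in DW males and 24 in DW females. Of all genes, 8.42%, 12.8%, 7.36% and 14% changed in these fits, in the same order. The part of the other cell types of this paragraph in the members' values was not tested.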

How the data were processed

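The members and the lists of other interferon genes and cell markers were chosen with earlier results of these data known. Per the labels' protocols, poly(A) RNA of 24 mice went into KAPA mRNA HyperPrep libraries, which were read on a NovaSeqXPlus instrument. The submitters' processing notes name fastp, HISAT2, featureCounts, DESeq2 1.38.3 and mm10, without their settings. The unit of the table that the authors deposited is a signal: read numbers over 1 factor for each library, of unstated scaling. All values (100%) were whole multiples of the sample's smallest value within 0.001, so whole reads were recovered for the count tests. The coordinates in the deposited table did not match GRCm38, so only chromosomes are given from it.

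The table has 16208 rows, and 90 repeated rows were left out, which gave 16118 genes. Groups follow the age, sex and weaning labels and descriptions. The titles of the p21 libraries give p28 and were not followed. No sample column was left unmapped (0). filterByExpr on the recovered reads (minimum count 10) kept 16005 genes. The design called for limma if the table held normalised values, and it did. limma 3.58.1 in R 4.3.3 (with a variance trend) was fitted once to all 24 animals, with 6 group coefficients and 18 residual degrees of freedom, on log2(value + 1), a scale that understates changes of low genes, and p-values were adjusted over 16005 genes. The p-values measure the spread between separate animals. Alternatives were edgeR 4.0.16 and DESeq2 1.42.0 on recovered reads, other scaling, a pseudocount of 0.1, no filter, only the compared groups, marker levels or the run of animal numbers as covariates, and fits without 1 or 2 animals. The tests were tried on simulated data first. On the real recovered reads edgeR with TMM called 21, 24, 20 and 24 of the 38 members in SW males, SW females, DW males and DW females against p21. It called 11.3%, 9.2%, 14.3% and 10.4% of all genes, in the same order.

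Any member or listed gene could be named. Per-animal values are given for the 3 called members with the largest change in a comparison, or, where none was called, for the 2 with the smallest p, and further members were added where a result turned on them. Promoters are RefSeq sequences of GRCm38.p6. Levels per kilobase used merged exon lengths of the GENCODE annotation of GRCm38, which retained introns can lengthen. 1 gene is not reported here.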

Additional observations from a re-analysis of the deposited data

Results flagged for a closer look

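Each group of 4 animals was searched for a value whose gap to its nearest neighbour took up more of the group's range than Dixon's 95% critical value for 4 samples. Of 234 groups and genes examined, 13 passed, and chance alone flags about 1 in 20, or 11.7. In SW male 85 the high values were Ifit2 at 49.4 (others 28.5 to 31.7), Ifit3 at 102.7 (others 31.5 to 41.3), Ifit3b at 24.7 (others 8.04 to 10.8) and Oas2 at 47.8 (others 25.9 to 26.8). In p21 female 36 they were Isg15 at 7.21, Oasl1 at 4.90 and Gbp2 at 54.4, and in p21 male 37 Parp14 at 98.4 and Gbp2 at 65.2. Oasl1 stood out as high in DW male 80, at 6.27, and Isg15 in SW female 74, at 15.96 (others 9.70 to 10.6). Low values were Psmb8 in DW male 87, at 40.4 (others 53.8 to 55.4), and Ifi27l2a in SW female 73, at 100.6 (others 169.7 to 182).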

How the results depend on the processing

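No paired analysis was possible because no animal number is shared between groups. The number of members that rose from p21 to p28 moved by over 1.5 times when the fit held the compared groups alone (11 in SW males, 15 in DW females), with the lymphocyte level as a covariate (13 in DW males), without p21 male 53 and SW male 85 (14 in SW males), and with the macrophage level as a covariate (3 in SW males, 5 in SW females, 1 in DW males, 10 in DW females). With the macrophage covariate 3.86%, 6.19%, 1.86% and 18.3% of all genes changed, in the same order. With the compared groups alone the share was 5.14% in SW males and 3.09% in DW females. It was 7.36% in DW males with the lymphocyte level and 5.89% in SW males without p21 male 53 and SW male 85. The covariate of macrophages and the leaving out of DW females 82 and 83 or of p21 male 53 and SW male 85 were chosen after seeing the data. The macrophage covariate also reversed Iigp1 (-0.34 in DW males, -0.25 in DW females), Oas2 (-0.13 in both) and Stat2 (-0.027 in DW males), and no other alternative reversed a member that had passed or a member with the smallest p. Its level did not overlap between ages, so such a fit rests on the spread within groups. Between DW females and SW females the number ranged from 0 to 2 over fits without 1 animal. The 2 came without DW female 76, where 12.5% of all genes changed. Between DW males and DW females the number was 2 with edgeR and TMM, 2 with edgeR and DESeq2 size factors and 2 with DESeq2. It was 1 with the compared groups alone, 1 with the lymphocyte and 1 with the macrophage covariate, and 0 to 2 over fits without 1 animal. Of all genes, 2.39% changed with either edgeR scaling, 5.3% with DESeq2, 11.4% without DW female 76 and 9.42% without DW female 77. The share was 1.6% with the compared groups alone, 2.76% with the lymphocyte and 2.84% with the macrophage covariate. All other counts over members stayed within 1.5 times under the alternatives run. The run of animal numbers could not be fitted in comparisons of ages, since no run holds both ages. Libraries held from 57600711 to 302145813 reads, and the number of animals, 4 a group, limits the precision of each change.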
